A study of Homo sapiens with 6 samples.

Results

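The IL-1 family and the enzymes of prostaglandin synthesis were examined as 10 of the 38100 genes in the deposited tables, chosen by name. They were the ligands IL1A, IL1B, IL18 and IL33, the receptor antagonist IL1RN, the receptor chains IL1R1 and IL1RAP, the cyclooxygenases PTGS1 and PTGS2, and the prostaglandin E synthase PTGES. All 10 were found in the tables. Of these, 7 had enough counts for a test, and 3 (IL1A, IL1RN and IL33) did not.

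The samples were HK2, an immortalized line derived from the proximal tubule epithelium of a human kidney, labelled with a WT genotype. In the AdCtrl group the cells carried a control adenovirus, and in the AdSIRT4 group they carried an adenovirus for SIRT4, a sirtuin deacylase known from mitochondria. All 6 samples were stimulated with TGF-β1, 3 per group, so every comparison is between virus groups within stimulated cells, with no unstimulated cells among them. The comparison addressed how raised SIRT4 changed gene expression under a profibrotic stimulus.

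These cells are a single established line, and the promoter that drives SIRT4 in the virus and the dose and time of TGF-β1 for the sequenced cells are not given in the sources used here. The numbers in the cell line labels run from HK2 to HK7 over the samples, although each title gives HK2. No label says that the 3 samples of a group came from separate cultures, and the study states that n stands for technical replicates in its work in vitro. The p-values below then measure only the spread between these samples, which may be technical.

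IL-1 cytokines are inflammatory signals. IL-1α and IL-1β bind IL1R1, which recruits the accessory chain IL1RAP and signals through MYD88 and IRAK kinases to NF-κB. IL1RN encodes a ligand that occupies IL1R1 without signalling, while IL-18 and IL-33 act through receptors of their own. Cyclooxygenases turn arachidonic acid into prostaglandin H2, from which PTGES makes prostaglandin E2, and PTGS2 is a classical gene induced by IL-1. Kidney tubules are known for IL-18 release in acute injury and for prostaglandin control of salt and water handling.

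Total counts lay between 41537353 and 85684748 per library. In AdSIRT4 replicate 1, the deviation of a gene from the mean of its group fell with gene length (Spearman correlation -0.583 across 17720 genes, which are not independent), whereas it rose with length in AdSIRT4 replicates 2 and 3 (0.496 and 0.514) and ran between -0.176 and 0.171 in the AdCtrl libraries. The deviations of a gene sum to 0 within its group, so a trend in 1 library brings opposite trends in the others. The rise in replicates 2 and 3 is thus no separate observation. The chi-square per gene between the counts of AdSIRT4 replicate 1 and those of replicates 2 and 3 was 191 and 237. It was 18.9 between replicates 2 and 3. AdSIRT4 replicate 1 therefore stood apart, and values without it are given for many, though not all, of the named genes. SIRT4 itself was at 0.573, 1.11 and 1.11 CPM (counts relative to the scaled library size) in AdCtrl replicates 1, 2 and 3 and at 51.2, 92.7 and 84.0 CPM in AdSIRT4 (log2 fold change 6.36 ± 0.36 SE, edgeR quasi-likelihood test, adjusted p = 0.00801). Reads of the viral and the cellular SIRT4 cannot be told apart. The epithelial keratins KRT8 (751 to 1095 CPM) and KRT18 (320 to 489 CPM, uncertain because of near-identical pseudogenes) and the kidney factor PAX8 (208 to 261 CPM) were detected in each library. Of 17 markers of proximal tubule epithelium, 5 (ANPEP, LRP2, AQP1, SLC22A6 and HNF4A) had too few counts for a test. Of 10 leukocyte markers, FCGR3A, CD3E and MPO were at 0 in all 6 libraries, PTPRC was at 0 to 0.0812 CPM, and the sum of the list, most of it CD68, was 34.7 to 40.1 CPM in AdCtrl and 39.1 to 49.7 CPM in AdSIRT4. The summed endothelial list was 0.425 to 0.588 CPM in AdCtrl and 0.411 to 0.742 CPM in AdSIRT4, and the summed fibroblast list 43.6 to 46.7 CPM and 42.1 to 42.4 CPM.

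Before the results of the comparison, the stretches upstream of both cyclooxygenase genes are shown, because these isoforms catalyse the same step and differed widely in level. The 250 bases before the first start site of each gene were taken from RefSeq (GRCh38.p14), at chr1:186680424-186680673 on the minus strand for PTGS2 and at chr9:122370283-122370532 on the plus strand for PTGS1. Capitals mark matches, on either strand, to the TATA box letters TATAAA, the GC box letters GGGCGG or the cAMP response element core TGACG.
PTGS2: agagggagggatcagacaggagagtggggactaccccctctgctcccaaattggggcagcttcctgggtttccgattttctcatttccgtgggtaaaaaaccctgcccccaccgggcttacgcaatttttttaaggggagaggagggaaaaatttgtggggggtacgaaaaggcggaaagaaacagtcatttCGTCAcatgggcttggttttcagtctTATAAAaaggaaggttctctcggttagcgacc
PTGS1: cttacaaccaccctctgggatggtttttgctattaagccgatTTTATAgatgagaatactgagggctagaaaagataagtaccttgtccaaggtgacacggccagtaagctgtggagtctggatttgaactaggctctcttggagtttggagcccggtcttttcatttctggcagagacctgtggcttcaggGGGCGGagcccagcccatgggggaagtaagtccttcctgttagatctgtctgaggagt

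In PTGS2, TATAAA began at base -32 from the start site and the cAMP response element core, as CGTCA on this strand, at base -58, and no GC box letters were found. In PTGS1, the GC box letters began at base -58, and the TATA letters were found only on the other strand, at base -208. The second start site of PTGS1 had GC box letters at base -202 and no TATA letters. Among 35116 RefSeq windows of the same length, 10.7% held TATAAA, 42.6% GGGCGG and 21.2% TGACG on either strand. Of the members, 9 had windows, 17 in all, and 5 windows held TATAAA, 7 GGGCGG and 3 TGACG. Windows of the same gene can overlap, and the IL1A windows with TGACG hold the same site, so these are not counts of separate sites. IL18 had no window in the table used. A match of letters is a description and not a site in use.

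On the scale of level per transcript length (FPKM, mean over 6 samples), the members spanned more than 3 orders of magnitude in these cells, in the order IL18 (59.2 FPKM), IL1RAP (11.3), PTGES (5.29), IL1R1 (3.26), PTGS1 (2.03), IL1B (1.44), PTGS2 (0.0763), IL1A (0.0276), IL1RN (0.0126) and IL33 (0). The ranges over the 6 samples did not meet between IL18 and IL1RAP, IL1RAP and PTGES, PTGES and IL1R1, PTGS1 and IL1B, or IL1B and PTGS2. The ranges of IL1R1 and PTGS1 overlapped, with IL1R1 above PTGS1 in 5 of 6 samples. Those of PTGS2 and IL1A also overlapped, although PTGS2 was the higher in each of the 6 samples. IL1A, IL1RN and IL33 could not be ordered beyond their spread.

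**Figure D1:**
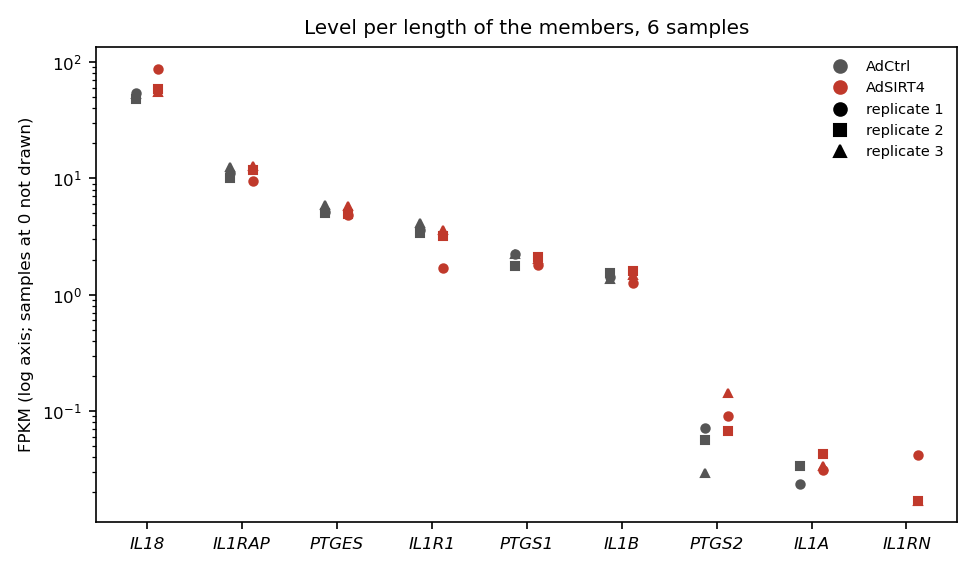
FPKM of each member on a log axis, with a point for each of the 6 samples, AdCtrl in grey and AdSIRT4 in red, and replicates by shape. IL18 lay between 48.0 and 87.4 FPKM and PTGS2 between 0.0295 and 0.143 FPKM, and IL33, at 0 in all samples, is not drawn.

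None of the 7 tested members passed an adjusted p of 0.05 in edgeR, where 0.0113% of the 17720 genes tested did (2 genes, 1 of them SIRT4). At an unadjusted p under 0.05 the count was again 0 of 7, beside 7.93% of all genes tested, and DESeq2 gave 0 of 7 at either threshold. The CPM of AdCtrl and AdSIRT4 overlapped for each of the 7, while the groups did not overlap for 19.4% of all genes tested. The median log2 fold change of all genes tested was 0.021. With 3 samples against 3, the two-sided exact permutation test cannot give a p below 0.1. In a bulk sample, fewer cells that express a gene and less RNA per cell cannot be told apart.

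**Figure D2:**
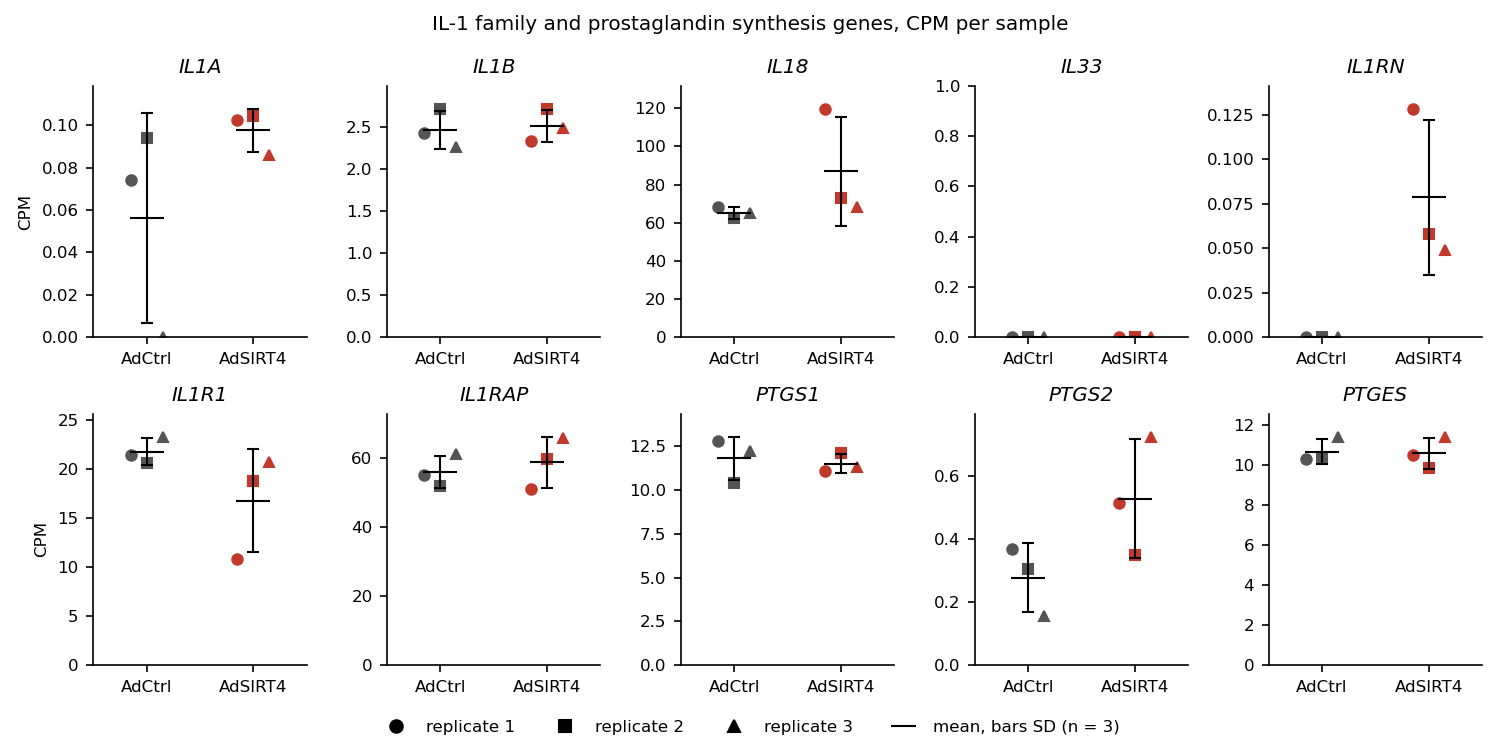
CPM of the 10 members in each sample, with replicates by shape and the mean and SD of each group (n = 3); each axis starts at 0. The groups overlap for each tested member, and IL18 and IL1R1 of AdSIRT4 replicate 1 (119.7 and 10.8 CPM) stand away from the other samples of that group.

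IL18 (chr11:112143260-112164094, GRCh38), the most abundant member, encodes a cytokine that is made as a precursor and cut by caspase-1. It was at 68.2, 62.3 and 64.9 CPM in AdCtrl replicates 1, 2 and 3 and at 119.7, 73.0 and 68.0 CPM in AdSIRT4. Replicate 1 of AdSIRT4 was far above the rest, and the lowest AdSIRT4 sample lay just under the highest AdCtrl sample. The log2 fold change was 0.41 ± 0.22 SE with a 95% interval of -0.097 to 0.93 (edgeR, unadjusted p = 0.0967, adjusted p = 0.69; exact permutation p = 0.2). Without AdSIRT4 replicate 1 it was 0.11 (adjusted p = 0.27). IL18 had a short transcript of 1.27 kb as derived from both tables. After correction of the libraries for their trends on gene length, the groups no longer overlapped (64.3 to 69.3 CPM against 75.8 to 89.0 CPM) and the log2 fold change was 0.26 (unadjusted p = 0.0125, adjusted p = 0.24).

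IL1B (chr2:112829751-112836779), the secreted ligand of IL1R1, was at 2.42, 2.71 and 2.26 CPM in AdCtrl and at 2.34, 2.71 and 2.49 CPM in AdSIRT4. The groups covered nearly the same range. The log2 fold change of 0.032 ± 0.16 SE had a 95% interval of -0.34 to 0.41 (edgeR, adjusted p = 0.95), which includes small changes in either direction.

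IL1A (chr2:112773925-112784493), whose product can act inside the cell, on its surface or after release, had 4, 4 and 0 counts in AdCtrl and 4, 9 and 7 counts in AdSIRT4. That was at most 0.104 CPM in any library. The authors' counts of 2 were 3.20 to 3.70 times as frequent as counts of 1 in each library, so that most small counts were even and a read pair appears to count as 2. A difference in IL1A was not detectable at this depth. IL33 (chr9:6215149-6257983), an alarmin stored in the nucleus, had 0 counts in all 6 libraries, which allows up to 3 read pairs, or 6 counts if a pair counts as 2, that is 0.0696 to 0.154 CPM per library, for counting error only.

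The receptor antagonist IL1RN (chr2:113099360-113134014) had 0 counts in each AdCtrl library and 5, 5 and 4 counts in AdSIRT4 replicates 1, 2 and 3. The groups did not overlap, but 4 or 5 counts stand for only 2 to 3 read pairs if a pair counts as 2, and the floor of 6 counts was 0.111 to 0.141 CPM in AdCtrl, beside 0.128, 0.0580 and 0.0492 CPM in AdSIRT4 replicates 1, 2 and 3. IL1RN did not pass the filter on low counts, and no fold is given for it.

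IL1R1 (chr2:102070390-102179874), the signalling receptor for IL-1α and IL-1β, was at 21.4, 20.6 and 23.3 CPM in AdCtrl and at 10.8, 18.8 and 20.8 CPM in AdSIRT4. Replicate 1 of AdSIRT4 was by far the lowest, and replicate 3 was within the AdCtrl range. The log2 fold change was -0.37 ± 0.23 SE with a 95% interval of -0.92 to 0.18 (edgeR, unadjusted p = 0.152, adjusted p = 0.72; exact permutation p = 0.2). Without AdSIRT4 replicate 1 it was -0.15 (adjusted p = 0.28). IL1R1 had a long transcript (5.93 kb). With the length trend removed, the AdCtrl libraries were at 20.1 to 22.5 CPM and the AdSIRT4 libraries at 12.5 to 19.7 CPM, without overlap, and the log2 fold change was -0.33 (adjusted p = 0.40). The share of all genes without overlap was not computed on that scale. The overlapping antisense gene IL1R1-AS1 had 1 count over all libraries; the counting is not stated to use strand.

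IL1RAP (chr3:190514085-190659750), the accessory chain that IL1R1 shares with the IL-33 and IL-36 receptors, was at 55.1, 51.7 and 61.0 CPM in AdCtrl and at 51.0, 59.6 and 65.7 CPM in AdSIRT4. The AdSIRT4 samples lay on both sides of the AdCtrl range. The log2 fold change was 0.072 ± 0.12 SE with a 95% interval of -0.22 to 0.36 (edgeR, adjusted p = 0.86).

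The FPKM of IL1RAP relative to IL1R1 within a sample was 3.04, 2.97 and 3.07 in AdCtrl and 5.57, 3.70 and 3.60 in AdSIRT4. Each AdSIRT4 sample was above each AdCtrl sample, also with the length trend removed from the CPM (2.53 to 2.64 against 3.21 to 4.49). The accessory chain thus exceeded the signalling chain in each of the 6 samples on the FPKM scale. This ratio is a description without a test, and it shows unequal levels within a sample rather than which of the genes moved.

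**Figure D3:**
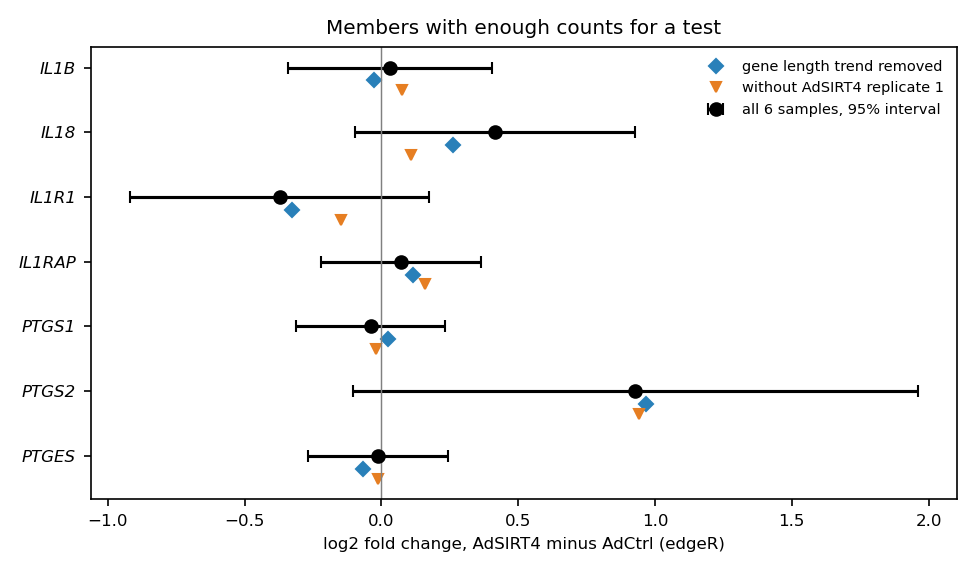
Log2 fold change of AdSIRT4 against AdCtrl for the 7 tested members, in black with the 95% interval of the edgeR fit on all 6 samples, in blue with the length trend removed and in orange without AdSIRT4 replicate 1. All 7 intervals of the black points include 0, and without AdSIRT4 replicate 1 IL18 moved from 0.41 to 0.11 and IL1R1 from -0.37 to -0.15.

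PTGS2 (chr1:186671791-186680423), the inducible cyclooxygenase, was close to the floor of detection in these stimulated cells. It had 20, 13 and 8 counts (0.370, 0.306 and 0.156 CPM) in AdCtrl and 20, 30 and 59 counts (0.513, 0.348 and 0.726 CPM) in AdSIRT4. AdSIRT4 replicates 1 and 3 were above the AdCtrl range and replicate 2 was inside it. The log2 fold change of 0.93 ± 0.44 SE was the largest of the members and had the smallest p, with a 95% interval of -0.10 to 1.96 (edgeR, unadjusted p = 0.0708, adjusted p = 0.67; exact permutation p = 0.2). Leaving out each library in turn gave values between 0.61 and 1.21, with the 0.94 without AdSIRT4 replicate 1 inside that range (adjusted p = 0.23). AdCtrl replicate 3 had under 10 counts, while all AdSIRT4 libraries had more, so PTGS2 passed the main count filter partly through AdSIRT4. It was not tested with at least 10 counts required in every sample or with a minimum mean FPKM of 1.

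PTGS1 (chr9:122370533-122395703), the constitutive cyclooxygenase, was at 12.8, 10.4 and 12.2 CPM in AdCtrl and at 11.1, 12.1 and 11.3 CPM in AdSIRT4. All AdSIRT4 samples were inside the AdCtrl range. The log2 fold change was -0.038 ± 0.12 SE with a 95% interval of -0.31 to 0.23 (edgeR, adjusted p = 0.91), and its sign turned with the length trend removed (0.025).

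The FPKM ratio of PTGS1 to PTGS2 was 31.4, 31.5 and 75.4 in AdCtrl and 19.6, 31.7 and 14.1 in AdSIRT4. PTGS1 was thus the dominant cyclooxygenase message in each sample. The groups overlapped through AdSIRT4 replicate 2, and the ratio in AdCtrl replicate 3 rests on 8 counts of PTGS2.

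PTGES (chr9:129738349-129753042), the inducible microsomal synthase that makes prostaglandin E2, was at 10.3, 10.3 and 11.4 CPM in AdCtrl and at 10.5, 9.82 and 11.4 CPM in AdSIRT4. The groups overlapped, with AdSIRT4 replicate 2 just below the AdCtrl range, and the log2 fold change of -0.013 ± 0.11 SE had a 95% interval of -0.27 to 0.24 (edgeR, adjusted p = 0.97).

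The genes whose CPM followed PTGS2 most closely over the 6 samples were KLHL22 (Pearson r = 0.981), CCNE2 (0.980), CCNA1 (0.975), ARNTL2 (0.974) and LOC124907871 (0.973), picked as the highest of all genes tested. The 6 points share libraries and groups, and PTGS2 carried few counts, so these values are a description.

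Among the other genes of the pathway, the 6 remaining IL-1 family ligands (the IL-36 cytokines, IL36RN, IL37 and IL1F10) had too few counts for a test. Of the 8 other receptors and decoys, 5 were tested, and their median log2 fold change was -0.051. IL1RL2, the IL-36 receptor, was at 12.8, 13.4 and 15.4 CPM in AdCtrl and at 6.90, 10.5 and 11.8 CPM in AdSIRT4, without overlap (log2 fold change -0.51 ± 0.20 SE, edgeR, unadjusted p = 0.0400, adjusted p = 0.61). Its log2 fold change was -0.32 without AdSIRT4 replicate 1. Of all genes tested, 3.5% were lower at an unadjusted p under 0.05, and 9.77% had their AdSIRT4 samples all below their AdCtrl samples. The decoy receptor IL1R2 (log2 fold change -0.16, adjusted p = 0.87) and the IL-18 receptor chain IL18R1 (0.33, adjusted p = 0.82) overlapped between groups. The IL-33 receptor IL1RL1 and the IL-18 receptor chain IL18RAP were untested, at no more than 0.0232 CPM in any library. Without AdSIRT4 replicate 1, edgeR called 1 of the 5 tested, beside 6.71% of all genes in that fit. The gene called was SIGIRR, an inhibitory receptor named after its values were seen (-0.37, adjusted p = 0.0281).

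Of 15 genes for cytokine processing and the inflammasome, 12 were tested and 10 of them had a log2 fold change above 0 (median 0.11; without AdSIRT4 replicate 1, 5 above 0 and median -0.015). The DNA sensor AIM2 (0.88 ± 0.36 SE, edgeR, unadjusted p = 0.0415, adjusted p = 0.61) and the IL-18 and IL-1β protease CASP1 (0.83 ± 0.41 SE, unadjusted p = 0.0814, adjusted p = 0.68) had groups that did not overlap, at 0.117 to 0.464 CPM. With the replicate block the unadjusted p of AIM2 was 0.0669. AIM2 had 9 counts in AdCtrl replicate 1 and CASP1 had 6 in AdCtrl replicate 3, under the minimum of 10. All AdSIRT4 libraries had more, so both genes passed the count filter partly through AdSIRT4. Of all genes tested, 9.66% had their AdSIRT4 samples all above their AdCtrl samples. S100A13, a carrier for IL-1α release, was at 81.8 to 93.5 CPM in AdCtrl and at 86.3 to 174.9 CPM in AdSIRT4, with the highest value in replicate 1, and its log2 fold change of 0.40 became -0.017 without that library.

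All 22 genes of the IL-1 receptor signalling list were tested, 14 above 0 and 8 below, with a median log2 fold change of 0.045. None passed an adjusted p of 0.05 in edgeR or DESeq2, and 3, all higher in AdSIRT4, had an unadjusted p under 0.05, beside 4.43% of all genes tested. They were the kinase MAP3K8 (0.42 ± 0.12 SE, unadjusted p = 0.0115, adjusted p = 0.53), the NF-κB inhibitor NFKBIA (0.45 ± 0.15 SE, unadjusted p = 0.0172, adjusted p = 0.55) and the ubiquitin-conjugating enzyme UBE2N (0.37 ± 0.15 SE, unadjusted p = 0.0402, adjusted p = 0.61), which showed no overlap between groups. Of the 22, 4 had AdSIRT4 samples all above AdCtrl and 1 all below, beside 9.66% and 9.77% of all genes tested. Without AdSIRT4 replicate 1, edgeR called 4 of the 22 at an adjusted p under 0.05, all higher, beside 6.71% of all genes in that fit, and sample quality weights gave 5, beside 9.51%. The log2 fold changes of MAP3K8, NFKBIA and UBE2N in the fit without AdSIRT4 replicate 1 were 0.35, 0.29 and 0.19. With the replicate block, the length trend removed or both, 0 were called.

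Genes that IL-1 is known to induce lay mostly above 0. Of 20, 17 were tested, 14 above 0 and 3 below, with a median log2 fold change of 0.50 beside 0.021 for all genes. At an unadjusted p under 0.05, 9 were higher and 1 lower in AdSIRT4, beside 4.43% and 3.5% of all genes tested. None passed an adjusted p of 0.05 in edgeR, and none with the replicate block, with the length trend removed or with both. DESeq2 called 7 (1.16% of all genes tested), limma voom with sample quality weights 11 (9.51%), and edgeR without AdSIRT4 replicate 1 called 10, all higher (6.71% of 18287 genes). Many of these genes answer to other NF-κB stimuli as well, and the list was written with earlier results of these data known.

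The chemokine CCL20 was at 3.07, 4.14 and 4.05 CPM in AdCtrl and at 11.4, 8.62 and 9.14 CPM in AdSIRT4 (log2 fold change 1.37 ± 0.17 SE, edgeR, unadjusted p = 0.000107, adjusted p = 0.24). The cytokine IL6 was at 19.2, 19.6 and 25.1 CPM and at 43.5, 37.0 and 43.7 CPM (0.96 ± 0.14 SE, unadjusted p = 0.000251, adjusted p = 0.25). The chemokine CXCL2 was at 45.3, 48.9 and 53.7 CPM and at 118.7, 73.2 and 84.6 CPM (0.90 ± 0.19 SE, unadjusted p = 0.00191, adjusted p = 0.49). Each of the 3 had all AdSIRT4 samples above all AdCtrl samples, as did 9 of the 17 tested genes of the list and 9.66% of all genes tested. Without AdSIRT4 replicate 1 their log2 fold changes were 1.24, 0.92 and 0.67 (edgeR, adjusted p = 0.000987, 0.00497 and 0.00206). CXCL2 is uncertain, because reads could be shared with near-identical CXCL1 and CXCL3. The gene that was lower was BIRC3, named after its values were seen (-0.34 ± 0.13 SE, unadjusted p = 0.0329, adjusted p = 0.61).

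**Figure D4:**
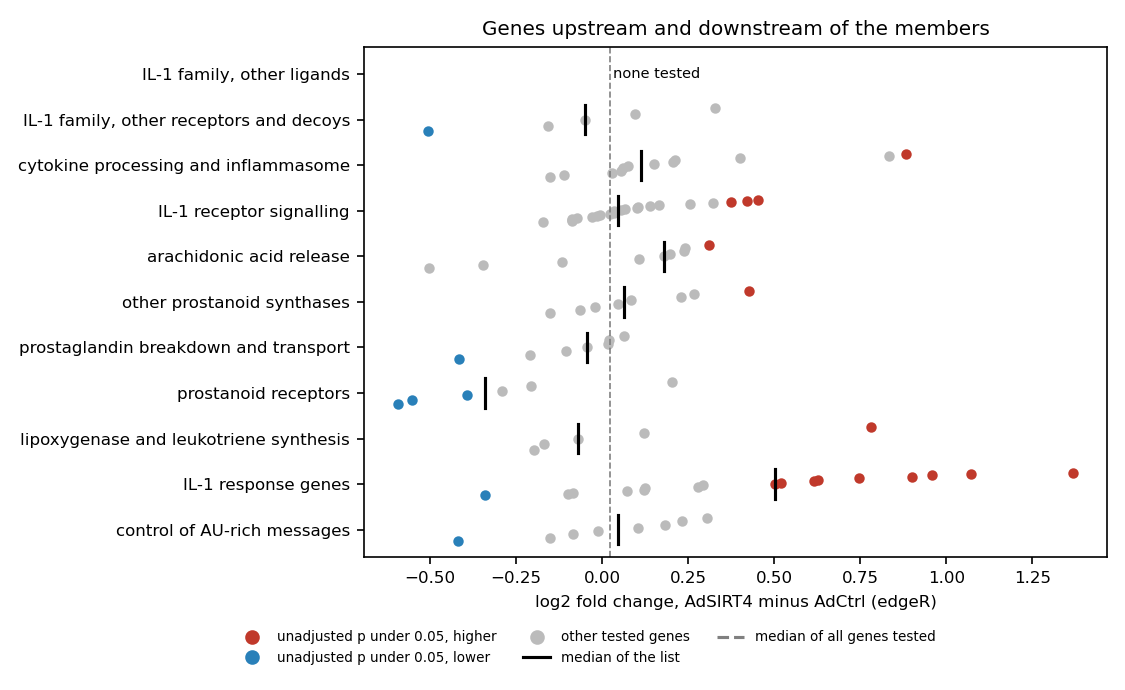
Log2 fold change of AdSIRT4 against AdCtrl for each tested gene of the 11 pathway lists, with genes at an unadjusted p under 0.05 in red (higher) or blue (lower), the median of each list as a black bar and the median of all genes tested (0.021) as a dashed line. The median of the IL-1 response genes was 0.50 and that of the prostanoid receptors -0.34, and no gene shown passed an adjusted p of 0.05.

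In the prostaglandin branch, 9 of 12 genes for arachidonic acid release were tested, with a median log2 fold change of 0.18 (-0.030 without AdSIRT4 replicate 1). The lipase PNPLA2 was higher in AdSIRT4 without overlap (0.31 ± 0.10 SE, edgeR, unadjusted p = 0.0198, adjusted p = 0.57). It was 1 of the 9 with AdSIRT4 samples all above AdCtrl, beside 9.66% of all genes tested. The phospholipases PLA2G6 (0.20, adjusted p = 0.71) and PLA2G4C (0.24, adjusted p = 0.77) overlapped between groups. Of 10 other prostanoid synthases, 8 were tested, with a median of 0.064. AKR1B1, an aldose reductase that can also form prostaglandin F2α, was at 958 to 1024 CPM in AdCtrl and at 1089 to 1639 CPM in AdSIRT4 (0.43 ± 0.17 SE, unadjusted p = 0.0427, adjusted p = 0.62). PTGES3, the cytosolic prostaglandin E synthase and HSP90 cochaperone, overlapped between groups (0.27, adjusted p = 0.72) and is uncertain because of pseudogene copies, and the prostaglandin D synthase PTGDS overlapped as well (0.23, adjusted p = 0.73). The log2 fold changes without AdSIRT4 replicate 1 were 0.24 for AKR1B1, 0.080 for PTGES3 and 0.042 for PTGDS. Without AdSIRT4 replicate 1, edgeR called PNPLA2 (adjusted p = 0.0327) and AKR1B1 (0.0492) as higher and the carbonyl reductase CBR1, named after its values were seen, as lower (0.0223). That fit called 6.71% of all its genes.

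Prostanoid receptors carry the prostaglandin signal at the cell surface. Of 10, 6 were tested, 5 of them below 0, with a median log2 fold change of -0.34. PTGER2, the EP2 receptor for prostaglandin E2, was at 66.9, 59.8 and 61.9 CPM in AdCtrl and at 51.0, 47.0 and 45.9 CPM in AdSIRT4 (-0.39 ± 0.093 SE, edgeR, unadjusted p = 0.00395, adjusted p = 0.49). PTGER1, the EP1 receptor, was at 2.57, 2.12 and 2.06 CPM and at 1.59, 1.52 and 1.38 CPM (-0.59 ± 0.18 SE, unadjusted p = 0.0121, adjusted p = 0.53).

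The thromboxane receptor TBXA2R was at 2.03 to 2.50 CPM in AdCtrl and at 1.46 to 1.56 CPM in AdSIRT4 (-0.55 ± 0.17 SE, unadjusted p = 0.0137, adjusted p = 0.54). For all 3 the groups did not overlap. Of the 6 tested, 5 had their AdSIRT4 samples all below their AdCtrl samples, beside 9.77% of all genes tested. None of the 6 passed an adjusted p of 0.05 in edgeR, also with the replicate block, the length trend removed or both, and 3 were lower at an unadjusted p under 0.05, beside 3.5% of all genes tested. DESeq2 called 1 (1.16% of all genes tested), sample quality weights 3 (9.51%), and edgeR without AdSIRT4 replicate 1 called 1, PTGER2 (adjusted p = 0.00325, beside 6.71% of the genes in that fit). The receptor above 0, named after its values were seen, was PTGER4, the EP4 receptor, at 3.20, 3.81 and 3.25 CPM in AdCtrl and at 4.26, 4.21 and 3.35 CPM in AdSIRT4, with overlap (0.20 ± 0.16 SE, adjusted p = 0.76).

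**Figure D5:**
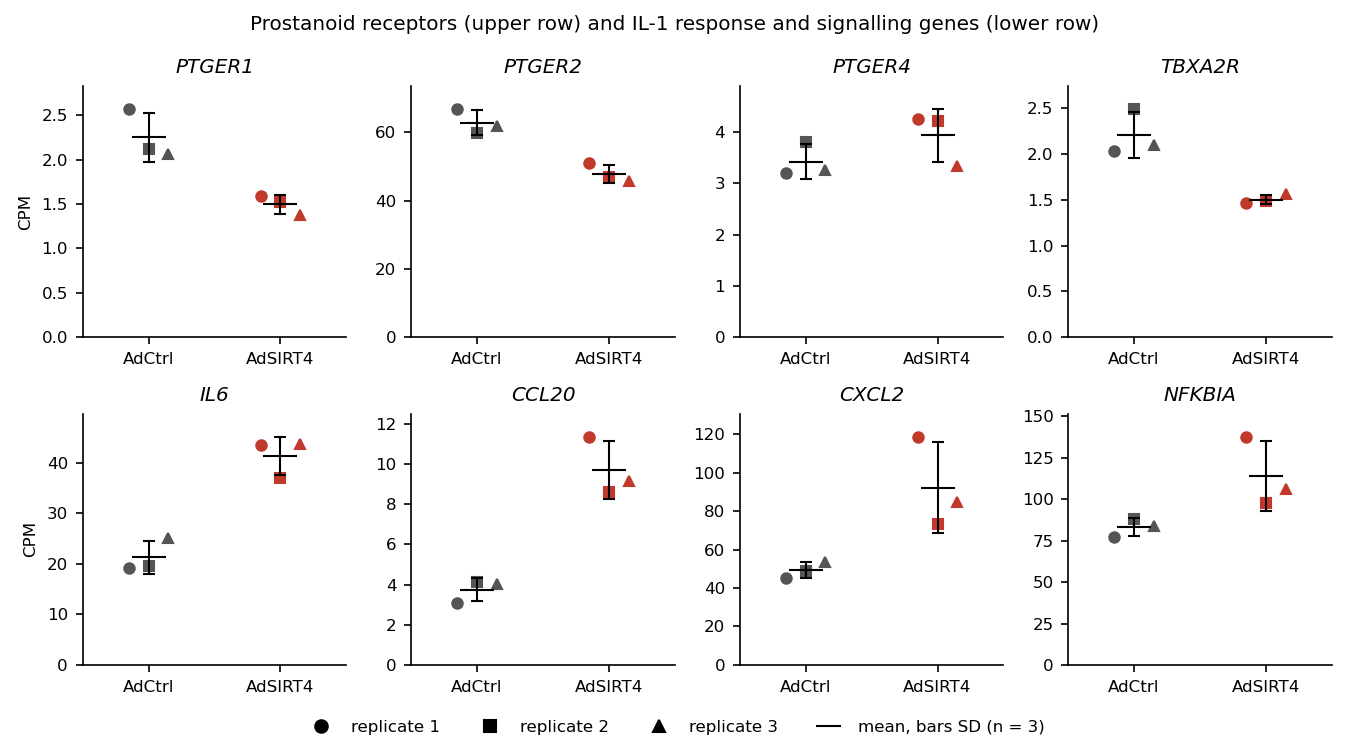
CPM per sample with the mean and SD of each group (n = 3) for 4 prostanoid receptors (upper row) and 4 IL-1 response or signalling genes (lower row); each axis starts at 0. PTGER1, PTGER2 and TBXA2R were lower and IL6, CCL20, CXCL2 and NFKBIA higher in each AdSIRT4 sample than in any AdCtrl sample, while PTGER4 overlapped.

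All 7 genes of prostaglandin breakdown and transport were tested, 3 above 0 and 4 below (median -0.045). PTGR3, a prostaglandin reductase, was at 21.6, 22.6 and 24.4 CPM in AdCtrl and at 16.5, 17.8 and 17.1 CPM in AdSIRT4 (-0.42 ± 0.095 SE, edgeR, unadjusted p = 0.00313, adjusted p = 0.49). The transporters SLCO3A1 (-0.21, adjusted p = 0.71) and ABCC4 (-0.11, adjusted p = 0.83) had unadjusted p-values of 0.130 and 0.475. Their log2 fold changes without AdSIRT4 replicate 1 were -0.11 and 0.024. The edgeR fit without AdSIRT4 replicate 1 called PTGR3 (adjusted p = 0.0145) and the related reductase PTGR1, named after its values were seen (0.0306), both lower. That was 2 of 7, beside 6.71% of all genes in that fit. With the length trend removed, AdSIRT4 replicate 1 stood at 21.7 CPM of PTGR3, inside the AdCtrl range of 21.0 to 23.0 CPM, and the unadjusted p was 0.0530 (0.0568 with the replicate block as well), so that no gene of the list was under 0.05. Of 8 lipoxygenase and leukotriene genes, 5 were tested (median -0.069). ALOX5AP, the helper protein of 5-lipoxygenase, was at 0.388, 0.400 and 0.623 CPM in AdCtrl and at 0.744, 0.847 and 0.837 CPM in AdSIRT4 (0.78 ± 0.28 SE, unadjusted p = 0.0251, adjusted p = 0.59). With the length trend removed its unadjusted p was 0.0768, and 0.0551 with the replicate block as well. ALOX12 (-0.20, adjusted p = 0.79) and LTA4H (0.12, adjusted p = 0.84) overlapped between groups.

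Messages of IL1B, IL6 and PTGS2 are known to be held in check by proteins that bind AU-rich elements. All 8 genes of that list were tested, 4 above 0 and 4 below (median 0.047). ZFP36L1, which speeds decay of such messages, was at 814, 959 and 864 CPM in AdCtrl and at 640, 665 and 670.0 CPM in AdSIRT4 (-0.42 ± 0.12 SE, edgeR, unadjusted p = 0.00835, adjusted p = 0.50). HNRNPD (0.30, adjusted p = 0.71) and TIAL1 (0.18, adjusted p = 0.73) overlapped between groups, and their log2 fold changes without AdSIRT4 replicate 1 were 0.080 and 0.057. The edgeR fit without AdSIRT4 replicate 1 called ZFP36L1 (adjusted p = 0.00914) and no other gene of the list, beside 6.71% of all genes in that fit. In none of the 11 pathway lists did edgeR with the replicate block, with the length trend removed or with both call a gene at an adjusted p under 0.05. DESeq2 called 1 of 7 tested genes of breakdown and transport and 1 of 8 of AU-rich messages, beside 1.16% of all genes tested. Sample quality weights called 2 of 5 other receptors, 2 of 9 genes for arachidonic acid release and 2 of 8 synthases. They also called 1 of 7 for breakdown and transport, 1 of 5 lipoxygenase genes and 2 of 8 for AU-rich messages, beside 9.51% of all genes tested.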

How the data were processed

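The authors deposited whole-number counts per gene for the 6 libraries (poly-T selected mRNA, sequenced as DNA nanoballs), without normalization, and a second table read here as deposited FPKM, a unit inferred from its values and not named. The submitters' processing notes name hg38 and fastp 0.21.0, HISAT2 2.1.0, StringTie 2.1.5 and DESeq2 1.30.1, without their order; the counting program and its use of strand are not given in the sources used here. Groups and replicate numbers came from the sample titles, and no column was left without a sample.

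Counts were compared with edgeR 4.0.16 in R 4.3.3 (filterByExpr with a minimum count of 10, TMM, robust quasi-likelihood test, Benjamini-Hochberg adjustment over all 17720 genes tested, threshold 0.05). SE is the absolute log2 fold change divided by the square root of F. CPM use TMM library sizes and are given as mean and SD. Transcript lengths were derived from counts and FPKM. The smallest 2-sided exact permutation p is 0.1. Genes close to PTGS2 were ranked on log2(CPM + 0.05). Tables and figures were made with Python 3.11.15, pandas 2.3.3, scipy 1.17.1 and matplotlib 3.10.9.

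The members, the 15 gene lists (164 entries) and the length-trend and weighting alternatives were chosen with earlier results of these data known. Named were all members, SIRT4, up to 3 tested genes with the smallest p in each pathway list, defining markers and the 5 genes closest to PTGS2. Other tested pathway genes given with values are said to have been chosen after their values were seen. PAX8, CD68 and the untested or undetected genes and markers were named outside these rules, also after their values were seen.

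Alternatives were DESeq2 1.42.0, RLE normalization, other count filters, limma 3.58.1 on log2(FPKM + 1) or log2(FPKM + 0.1) and with a minimum mean FPKM of 1, removal of each library's trend on gene length, limma voom with sample quality weights, a replicate block and each library left out. Same-numbered AdCtrl and AdSIRT4 samples deviated together from their group means (Pearson r across genes 0.178, 0.159 and 0.176, against -0.188 to 0.0298 for other pairs), so the replicate block took the numbers to pair the samples. The main edgeR fit and the permutation test did not use this pairing. With the block, the unadjusted edgeR p was 0.0729 for IL18, 0.0769 for IL1R1 and 0.105 for PTGS2. No library was a copy of another, with a chi-square per gene of at least 9.97 between replicates. The fits were tested on simulated counts with the same dispersion for all genes and no trend on gene length. That test does not cover a library that stands apart as AdSIRT4 replicate 1 did.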

Additional observations from a re-analysis of the deposited data

How the results depend on the processing

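No member passed an adjusted p of 0.05 under any of the 18 alternatives. The number of members at an unadjusted p under 0.05 was 0 with all samples, and 1 with no filter beyond 1 count (IL1RN), with limma on log2(FPKM + 1) or log2(FPKM + 0.1) (IL1RN), with the length trend removed (IL18) and with limma voom and sample quality weights (IL1R1). IL1RN entered the fit with no filter beyond 1 count only through AdSIRT4, with 5, 5 and 4 counts beside 0 in each AdCtrl library. Its p-values in these fits are therefore not read as a result. The replicate block alone left the number of members at 0 and changed no call of a member, and the block with the length trend removed gave 2 (IL1R1 and IL18). Leaving out each library in turn gave 0 to 1: IL1RAP without AdSIRT4 replicate 1, PTGS2 without AdSIRT4 replicate 2 and IL18 without AdSIRT4 replicate 3. Of all genes in each fit, an unadjusted p under 0.05 was reached by 1559 of 28227 with no filter beyond 1 count. Limma gave 383 and 1212 of 38100 on log2(FPKM + 1) and log2(FPKM + 0.1). The counts were 2463 of 17720 with the length trend removed, 2460 with the block as well and 4835 with sample weights. Without AdSIRT4 replicates 1, 2 and 3 in turn, they were 4446 of 18287, 1064 of 17962 and 1501 of 17976. The member counts are not read as results about the members. Members with groups that do not overlap numbered 1 (IL1RN), 2 on FPKM (with IL18), 2 with the length trend removed (IL1R1 and IL18), and 1 to 4 with a library left out, where 2 samples against 3 overlap less easily: 3 without AdCtrl replicate 1 (with IL18 and PTGS2), 4 without AdCtrl replicate 2 (with IL1A, IL1R1 and PTGS1), 2 without AdSIRT4 replicate 2 (with PTGS2) and 4 without AdSIRT4 replicate 3 (with IL1A, IL1R1 and IL18). Of all genes tested, 19.4% had no overlap on CPM with all 6 samples. That share was not computed on FPKM, with the length trend removed or with a library left out. The counts of members there have no background and are not read as results.

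Of the members' log2 fold changes under the alternatives, 113 kept their sign and side of the threshold and 11 changed sign, all in members near 0. IL1B turned to -0.026 with the length trend removed and -0.049 with the replicate block added, PTGS1 to 0.025, 0.031 and, with sample weights, 0.0057. With a library left out, IL1B ranged from -0.027 to 0.10, IL1RAP from -0.016 to 0.16, PTGS1 from -0.12 to 0.024 and PTGES from -0.071 to 0.043. Among the list genes, sample weights turned IL18R1 to -0.0094, ABCC4 to 0.019 and LTA4H to -0.084, and leaving out AdSIRT4 replicate 1 turned S100A13 to -0.017, ABCC4 to 0.024 and LTA4H to -0.11. The cause of these shifts was not tested. List counts under DESeq2, sample weights, the length correction, the block and without AdSIRT4 replicate 1 were alternatives added after the data were seen. The counts of all genes past an adjusted p of 0.05 were 2 in edgeR, 206 in DESeq2, 1 with the replicate block, 12 with the length trend removed, 1685 with sample weights and 1227 without AdSIRT4 replicate 1. Depth limits IL1A, IL1RN, IL33 and PTGS2, each with at most 59 counts in a library.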
